A study of Mus musculus with 6 samples.

Results

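The 6 genes described here, Eomes, Insm1, Btg2, Hes6, Gadd45g and Sstr2, mark the intermediate progenitors of the embryonic cortex. They were taken by name, and each matched 1 gene among the 34289 genes to which the deposited transcripts were summed. All 6 passed the filter on low counts and are among the 16985 genes tested. RNA was sequenced from postmitotic neurons of mouse cortex at embryonic day 14.5. There were 3 libraries from mutant embryos (Rp58-/-) and 3 from control embryos (Rp58+/+). Rp58, now named Zbtb18, encodes a zinc finger repressor of transcription. The labels name no strain, sex, promoter or Cre line, and nothing in them ties the replicates to separate embryos, so each p measures only the spread among these libraries, which may be technical. They also do not describe how the neurons were separated from other cells.

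Intermediate progenitors, also called basal progenitors, arise from radial glia and divide away from the ventricle to give pairs of neurons. Cells pass through this state briefly, with proneural factors switched on first, the T-box factor Eomes (also named Tbr2) next, and neuronal factors such as Tbr1 after that. Genes of this state are switched off as the daughter neurons mature, so in postmitotic neurons they are usually low.

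The libraries were of 2 technical types that crossed the genotypes unevenly. In mutant 1, mutant 2 and control 1, length minus effective length was the same for every long transcript in all 3 libraries, the fixed-length type. In mutant 3, control 2 and control 3 its median lay between 133.7 and 139.2 bases, the estimated-length type. Total estimated counts lay between 53044306 and 56472475 in the mutant libraries and between 34645505 and 75892649 in the control libraries. The smallest count of any of the 6 genes in a library was 497. Zbtb18 itself was at 46.7, 45.7 and 538 CPM (counts scaled by the normalized library size) in mutants 1, 2 and 3, against 1902, 1587 and 1697 CPM in controls 1, 2 and 3, so mutant 3 kept more of the targeted transcript than the other mutants. All 8 markers of postmitotic neurons were detected, with a summed level of 4930 to 7690 CPM in mutant libraries and 6035 to 9068 CPM in control libraries. With the library type term described next 2 of them were called higher and 3 lower (7.92% and 7.01% of all genes). Without it none was called, and 1 had an unadjusted p under 0.05, as did 1642 of 16985 genes tested. DESeq2 with the term called 2 of them higher and 5 lower, beside 1690 and 2178 of all 34289 genes. Here and below, the 34289 are all summed genes, of which 28791 had any count after rounding. DESeq2 also gave some low genes no adjusted p, so its share called among genes with an adjusted p is larger. Fold changes below come from a fit with a term for library type, and the fit without that term is given beside the calls.

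The mutant neurons carried more transcript of 3 of the 6 genes: Eomes, Btg2 and Gadd45g. The plot of levels by library shows these rises. Eomes rose the most, 4.0-fold, while Gadd45g rose 2.15-fold and Btg2 1.85-fold, and no member fell. Among all genes tested, 7.92% were called higher and 7.01% lower by the same rule, an adjusted p under 0.05 in the quasi-likelihood test of edgeR. The median log2 fold change was 0.69 over the 6 genes and -0.00081 over all genes tested. Without the term for library type no member was called, although 3 had an unadjusted p under 0.05, as did 1642 of the 16985 genes tested. In that fit 1.59% of all genes tested were called higher. DESeq2 with the term called 4 members higher, adding Insm1. Over all 34289 genes, a total that includes genes without an adjusted p, it called 1690 higher and 2178 lower. In CPM, every mutant library lay above every control library for 4 members, Eomes, Insm1, Btg2 and Gadd45g, as it did for 8.8% of all genes tested, while 6.64% had every mutant below every control. Effects within each library type came from a fit of all 6 libraries with the spread pooled over both types. Within the fixed-length libraries the same 3 genes were called, beside 6.05% of all genes called higher. Within the estimated-length libraries 1 member, Eomes, was called, beside 4.6% of all genes called higher.

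**Figure D1:**
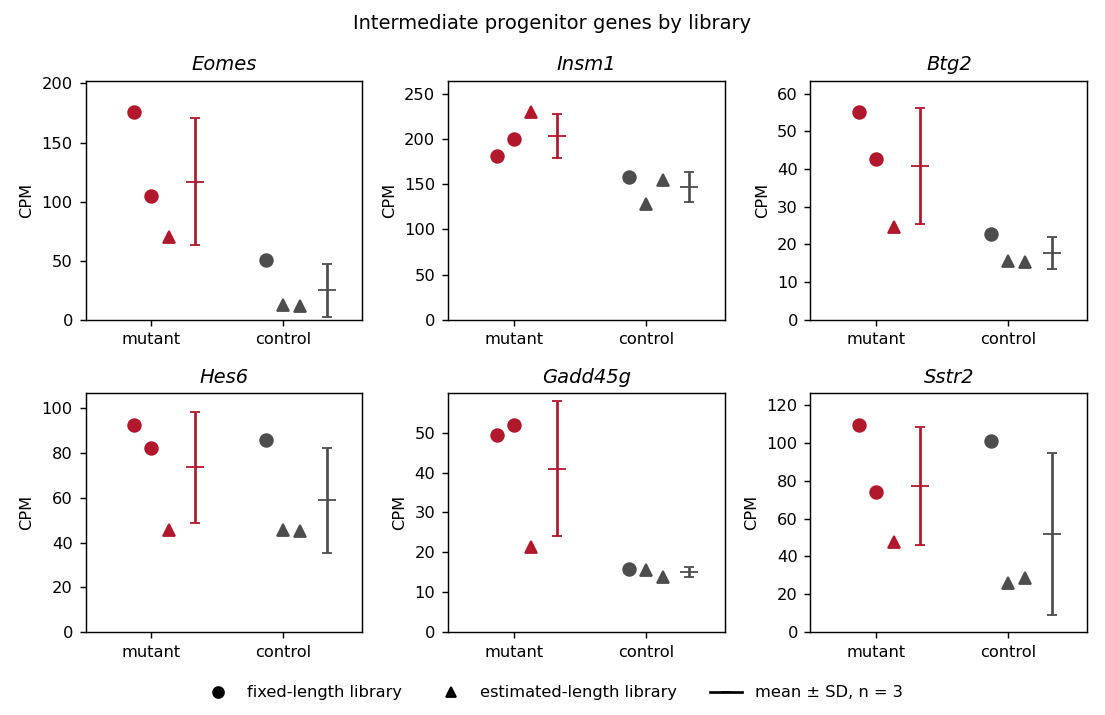
Level of each gene in CPM (vertical axes, from 0) in the 3 mutant (red, left) and 3 control (grey, right) libraries. Circles are fixed-length and triangles estimated-length libraries, and the bars give the mean and SD of 3 libraries. For Eomes, Insm1, Btg2 and Gadd45g all mutant points lie above all control points, while for Hes6 and Sstr2 they overlap.

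To show the stretch of DNA next to the start of each gene that rose, the 250 bases before the RefSeq start of Eomes, Btg2 and Gadd45g are printed 5′ to 3′ along the gene's strand, in build GRCm38.p6. Capitals mark E-boxes (CANNTG, the motif of proneural bHLH factors) and CCAAT boxes (CCAAT on either strand). The Eomes stretch is chr9:118477939-118478188 on the plus strand, that of Btg2 chr1:134079156-134079405 on the minus strand, and that of Gadd45g chr13:51846425-51846674 on the plus strand.
Eomes: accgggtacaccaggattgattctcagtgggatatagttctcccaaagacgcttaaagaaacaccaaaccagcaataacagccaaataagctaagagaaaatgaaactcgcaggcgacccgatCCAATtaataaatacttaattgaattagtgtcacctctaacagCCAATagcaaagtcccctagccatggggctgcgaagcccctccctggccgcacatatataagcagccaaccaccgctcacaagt
Btg2: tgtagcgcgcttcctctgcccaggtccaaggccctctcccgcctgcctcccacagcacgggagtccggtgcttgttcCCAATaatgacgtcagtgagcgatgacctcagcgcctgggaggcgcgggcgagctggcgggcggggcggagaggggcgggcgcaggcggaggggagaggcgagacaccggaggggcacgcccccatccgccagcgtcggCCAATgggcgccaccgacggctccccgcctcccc
Gadd45g: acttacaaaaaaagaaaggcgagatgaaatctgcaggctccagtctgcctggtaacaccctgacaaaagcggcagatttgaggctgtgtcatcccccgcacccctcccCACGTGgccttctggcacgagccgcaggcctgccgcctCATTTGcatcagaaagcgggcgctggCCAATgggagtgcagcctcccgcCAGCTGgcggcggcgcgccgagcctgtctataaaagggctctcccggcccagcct

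Each of the 3 stretches held a CCAAT box, with 2 in Eomes, 2 in Btg2 and 1 in Gadd45g, as did 33.8% of all 32851 RefSeq promoter stretches of that length. Only Gadd45g of these 3 held E-boxes, with CACGTG starting 142 bases before the start, CATTTG 104 bases before it and CAGCTG 55 bases before it, and 66.2% of all stretches held at least 1. The RP58 recognition sequence ACATCTGGA, searched on both strands, was in none of the 6 stretches found for 5 members, of which Hes6 had 2, and in 0.28% of all stretches. Its core CATCTG, which is itself an E-box, was in none of the 6 either and in 14.4% of all stretches. The exact string TATAAA was in the Gadd45g stretch, 27 bases before the start, in 1 of the Hes6 stretches, and in 12.4% of all. Variants of it were not searched, so other TATA boxes would not be seen. The CCAAT and TATAAA motifs were added after the sequences were seen. Insm1 had no entry. These windows cover 250 bases, and a site outside them would not be seen.

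Eomes, which encodes the T-box factor that defines intermediate progenitors and drives their differentiation, showed the largest change. Its level was 176, 104 and 70.1 CPM in mutants 1, 2 and 3, against 50.7, 12.2 and 11.8 CPM in controls 1, 2 and 3. The lowest mutant lay above the highest control, although both groups spread widely (117 ± 53.8 CPM in mutants and 24.9 ± 22.3 CPM in controls, SD, n = 3). The log2 fold change was 2.0 ± 0.28 (SE) with adjusted p = 0.00485, and 2.23 ± 0.71 with adjusted p = 0.308 without the term for library type. In the fixed-length libraries the effect was 1.47 ± 0.31 (adjusted p = 0.0403), and in the estimated-length libraries 2.54 ± 0.28 (adjusted p = 0.00487). The difference between these was not called (unadjusted p = 0.0379, adjusted p = 0.639). With the term, the call held whichever library was left out, with log2 fold changes from 1.47 without mutant 3 to 2.56 without control 1. Leaving out either of these leaves a library type with a single genotype. Those fits therefore largely repeat the effects within the fixed-length and the estimated-length libraries given above.

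Eomes has 3 protein-coding transcript models, and 2 of them carried nearly all counts. Eomes-201 held 59.8%, 60.3% and 66.1% of the gene's counts in mutants 1, 2 and 3 and 63.4%, 46.9% and 48.3% in controls 1, 2 and 3. Eomes-202 held most of the remainder. The log2 fold changes of these models were 2.24 ± 0.42 (adjusted p = 0.0909) for Eomes-201, which was not called, and 1.77 ± 0.25 (adjusted p = 0.0452) for Eomes-202. Eomes-202 was the only transcript model of the 6 genes that was called. Of 42824 transcripts tested, 1.11% were called higher. Without the library type term neither model was called, in a fit that called 0.0117% of transcripts higher. Reads shared by transcript models are divided by kallisto, so values of single models are less certain than those of the gene.

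Btg2, an antiproliferative gene of the BTG/TOB family whose transcript marks progenitors about to make neurons, was the second of the genes that rose when ordered by adjusted p. It had 55.1, 42.6 and 24.6 CPM in mutants 1, 2 and 3, against 22.7, 15.5 and 15.3 CPM in controls 1, 2 and 3. The groups did not overlap, but mutant 3 exceeded control 1 by little. The log2 fold change was 0.89 ± 0.15 with adjusted p = 0.00891, and 1.19 ± 0.34 with adjusted p = 0.238 without the term. The fixed-length libraries gave 1.10 ± 0.18 (adjusted p = 0.0187) and the estimated-length libraries 0.68 ± 0.17 (adjusted p = 0.0768). The call was lost when control 1 was left out (log2 fold change 0.70, adjusted p = 0.0779) and held without each other library.

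Gadd45g encodes a small stress-inducible protein that binds the kinase MAP3K4 and is switched on as progenitors leave the cell cycle. Its level was 49.4, 52.1 and 21.4 CPM in mutants 1, 2 and 3, against 15.9, 15.5 and 13.8 CPM in controls 1, 2 and 3. The controls lay close together (15.1 ± 1.14 CPM) while mutant 3 sat well under mutants 1 and 2 (mutant mean 41.0 ± 17.0 CPM, SD, n = 3 in each group). The log2 fold change was 1.10 ± 0.25 with adjusted p = 0.0298, and 1.44 ± 0.36 with adjusted p = 0.154 without the term. The effect was 1.67 ± 0.14 in the fixed-length libraries (adjusted p = 0.00205) and 0.54 ± 0.13 in the estimated-length libraries (adjusted p = 0.0623). The difference between these had an unadjusted p of 0.00108 and an adjusted p of 0.194, in a test where 0.153% of all genes were called. The call was lost without control 1 (0.57, adjusted p = 0.0616), control 3 (1.13, adjusted p = 0.0773) or mutant 1 (1.06, adjusted p = 0.0767). Mutant 3 is both the only estimated-length mutant and the mutant with the most Zbtb18 transcript, so library type and remaining Zbtb18 cannot be told apart here. The same limit holds for every member, since each estimated-length effect has mutant 3 as its only mutant. That effect was larger than the fixed-length effect for Eomes, Insm1 and Sstr2, and smaller for Gadd45g, Btg2 and, by little, Hes6.

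Insm1, a zinc finger repressor that promotes the formation of intermediate progenitors, lay just outside the threshold. It had 181, 200 and 230 CPM in mutants 1, 2 and 3, against 158, 128 and 154 CPM in controls 1, 2 and 3. The groups did not overlap, and mutant 3 was the highest library. The log2 fold change was 0.48 ± 0.13 with adjusted p = 0.0538, and 0.47 ± 0.19 with adjusted p = 0.521 without the term. Insm1 passed with DESeq2 (0.45, adjusted p = 0.0181) and with no filter on low counts (0.48, adjusted p = 0.00679). It did not pass with RLE factors (adjusted p = 0.0716) or with limma on log2(TPM + 0.1) or log2(TPM + 1) (0.0573 and 0.0794). Of 6 fits with the term that each left out a library, 0 called Insm1. Without mutant 3 its log2 fold change was 0.27 with adjusted p = 0.369. The effect was 0.27 ± 0.16 in the fixed-length libraries and 0.70 ± 0.16 in the estimated-length libraries.

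Hes6, a HES family member that counters HES1 and promotes neuronal differentiation, had nearly equal levels in both genotypes within each library type. It had 92.7, 82.2 and 45.6 CPM in mutants 1, 2 and 3, against 85.8, 45.5 and 45.0 CPM in controls 1, 2 and 3. The fixed-length libraries were high and the estimated-length libraries low, whatever the genotype. Its log2 fold change was 0.019 ± 0.079 (adjusted p = 0.909), 0.026 within the fixed-length and 0.011 within the estimated-length libraries. It was -0.011 with size factors of the RLE kind. The 0.32 ± 0.39 of the fit without the term was not called (adjusted p = 0.996). Hes6 was also the member with the most counts in noncoding transcript models, most of them in Hes6-202, which keeps an intron. Noncoding models took 8.25%, 15.8% and 18.8% of its counts in mutants 1, 2 and 3 and 5.17%, 26.3% and 25.0% in controls 1, 2 and 3.

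Sstr2, a receptor for somatostatin that marks intermediate progenitors and newborn neurons, was not called in either fit. It had 110, 73.8 and 47.7 CPM in mutants 1, 2 and 3, against 101, 25.9 and 28.6 CPM in controls 1, 2 and 3, and the groups overlapped. The log2 fold change was 0.33 ± 0.23 with adjusted p = 0.404, and 0.57 ± 0.62 with adjusted p = 0.996 without the term. The effect was -0.14 ± 0.23 in the fixed-length libraries and 0.81 ± 0.23 in the estimated-length libraries, neither of them called (adjusted p = 0.770 and 0.110). The difference between library types had an unadjusted p of 0.0286 and an adjusted p of 0.608.

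**Figure D2:**
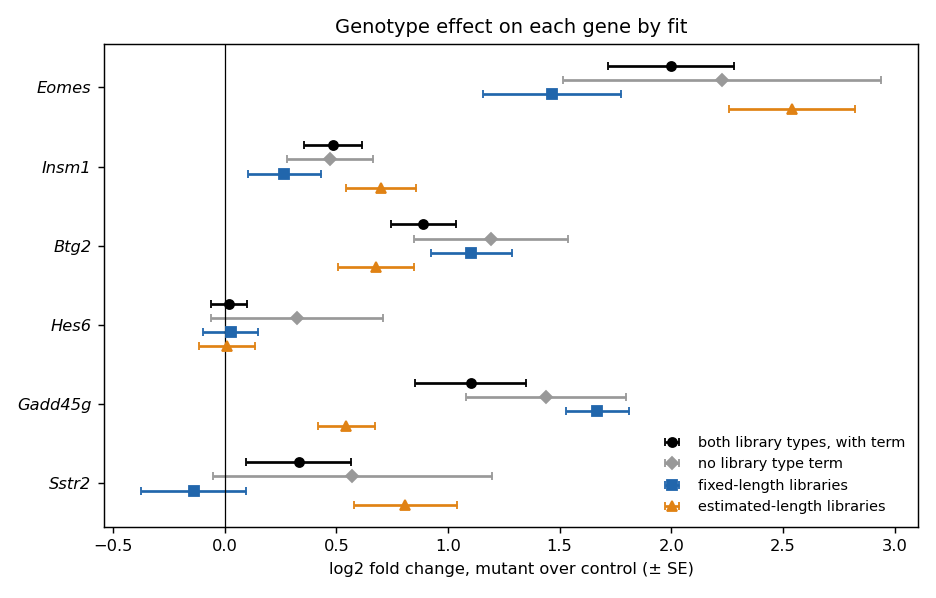
Log2 fold change of mutant over control with its SE (horizontal axis) for each gene in 4 fits: both library types with a term, no term, and within each type. Eomes lies between 1.47 and 2.54 in all 4, Hes6 stays near 0 except without the term, and Gadd45g is further from 0 in the fixed-length libraries than in the estimated-length libraries.

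In every mutant library Eomes took a larger part of the summed TPM of the 6 genes than in any control library. TPM is used here because it accounts for length, as a share within each library. The Eomes share was 16.8%, 11.6% and 11.6% in mutants 1, 2 and 3, against 7.14%, 3.40% and 3.02% in controls 1, 2 and 3. The Hes6 share was lower in every mutant library than in any control library, with 24.1%, 24.6% and 19.3% in mutants, against 33.4%, 30.7% and 28.7% in controls, while its CPM overlapped between genotypes. Insm1 spread most, with 18.2%, 23.4% and 39.8% in mutants and 23.6%, 35.9% and 40.5% in controls. Either Hes6 or Insm1 was the highest of the 6 per length in each library. Btg2 was the lowest in each mutant library and in control 1, and Eomes was the lowest in controls 2 and 3. The order of Hes6 and Insm1 went with library type. Hes6 took the larger share in every fixed-length library, and Insm1 took the larger share in every estimated-length library. The shares of Gadd45g and Sstr2 overlapped across libraries of each genotype, so the order of these genes did not exceed the spread.

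A further 18 genes of intermediate progenitors and early neuronal commitment were listed, of which 17 were tested. Of these, 10 rose, 2 fell and 5 were not called, and their median log2 fold change was 1.0. The share called over all genes is given above, at 7.92% higher and 7.01% lower. Without the library type term 3 rose and 1 fell, against 1.59% and 0.765% of all genes. Some of these genes, such as Neurog2 and Neurod1, were known from earlier results of the same libraries, so the list is not independent evidence of direction.

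The 3 with the smallest p among those that rose were Mfng, Neurog2 and Ppp1r17. Mfng, a fringe enzyme that modifies Notch receptors, had 211, 170 and 73.9 CPM in mutants 1, 2 and 3, against 24.8, 6.83 and 6.66 CPM in controls 1, 2 and 3 (log2 fold change 3.19 ± 0.15, adjusted p = 6.02e-05, and 0.0841 without the term). Neurog2, the proneural factor that acts upstream of Eomes in cortex, had 101, 91.3 and 82.9 CPM in mutants, against 27.6, 17.4 and 20.0 CPM in controls (1.97 ± 0.11, adjusted p = 0.000123, and 0.0117 without the term). Both showed all mutants above all controls. Ppp1r17, a phosphatase inhibitor gene, had 13.3, 13.9 and 5.59 CPM in mutants and at most 0.145 CPM in controls (adjusted p = 0.000178, and 0.00613 without the term), so control neurons barely carried it. The others that rose were Neurod1, Mfap4, Nhlh1, Dll1, Dll3, Slc17a6 and Ccnd2, with log2 fold changes from 0.67 for Ccnd2 to 2.61 for Neurod1.

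The 2 that fell were Tbr1 and Rasgef1b. Rasgef1b, an exchange factor gene for Ras-like GTPases, had 83.2, 76.2 and 94.8 CPM in mutants, against 208, 191 and 194 CPM in controls (log2 fold change -1.20 ± 0.10, adjusted p = 0.000608, and 0.0273 without the term). Elavl4, a neuronal RNA-binding protein gene and the gene with the highest mean CPM among those not called, had 233 ± 68.0 CPM in mutants and 148 ± 47.9 CPM in controls (adjusted p = 0.0636 with edgeR, and 0.0234 with DESeq2, which called it higher). Neurog1, Igsf8, Cxcl12 and Unc5d were not called either, and Neurod4 was too low to be tested.

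**Figure D3:**
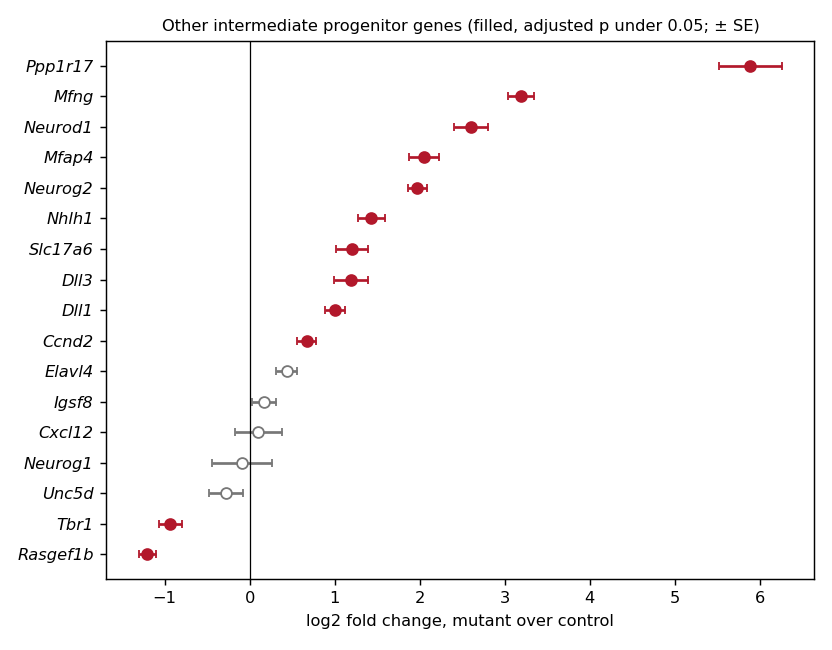
Log2 fold change of mutant over control with its SE for the 17 tested genes of the wider list, in the fit with the library type term. Filled points passed an adjusted p of 0.05, with 10 on the right of 0 and 2, Tbr1 and Rasgef1b, on the left.

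Tbr1, the T-box factor that follows Eomes as neurons are born, changed in the direction opposite to Eomes. It had 351, 370 and 303 CPM in mutants 1, 2 and 3, against 577, 700 and 679 CPM in controls 1, 2 and 3, and the groups did not overlap (log2 fold change -0.93 ± 0.13, adjusted p = 0.00464, and 0.117 without the term). Of the TPM of Eomes, Tbr1 and Tbx21 together, Eomes took 38.0%, 25.4% and 19.0% in mutants 1, 2 and 3, against 9.66%, 1.94% and 1.94% in controls 1, 2 and 3. Tbr1 held nearly all the rest, and Tbx21 took at most 0.0217% in any library.

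Among somatostatin receptors, Sstr1 and Sstr3 moved in opposite directions around Sstr2. Sstr1 rose, with 6.64, 5.33 and 3.79 CPM in mutants, against 0.668, 0.997 and 0.403 CPM in controls (log2 fold change 2.68 ± 0.39, adjusted p = 0.00542, and 0.0413 without the term). Sstr3 fell, with 4.38, 3.65 and 1.40 CPM in mutants, against 26.7, 12.9 and 14.0 CPM in controls (-2.96 ± 0.18, adjusted p = 0.000163, and 0.0987 without the term). Neither gene overlapped between genotypes. Sstr2 was the main receptor transcript per length, with 92.2%, 90.6% and 90.9% of the family's TPM in mutants and 87.9%, 77.3% and 79.2% in controls. Sstr4, Sstr5 and the ligand genes Sst and Cort were too low to be tested, with none above 0.190 CPM in a library.

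**Figure D4:**
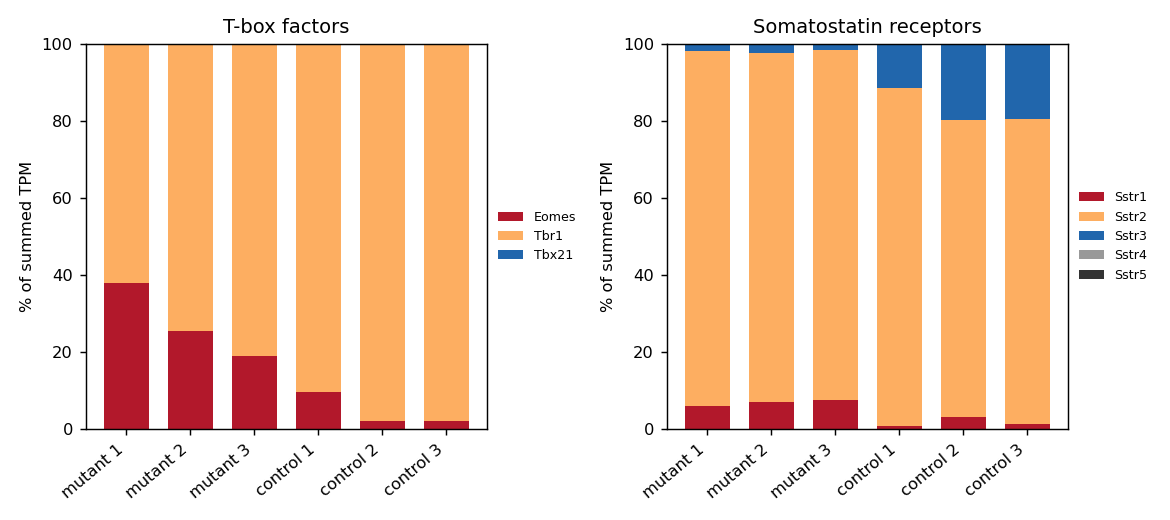
Share of each gene in the summed TPM (vertical axis, percent) of the T-box factors Eomes, Tbr1 and Tbx21 (left) and of the 5 somatostatin receptors (right), for each of the 6 libraries. Eomes takes 19.0% to 38.0% in mutants and 1.94% to 9.66% in controls, and Sstr3 takes a smaller share in each mutant than in each control.

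Of the 6 listed BTG/TOB and deadenylase genes, only Btg1, the closest relative of Btg2, rose, with 160, 151 and 135 CPM in mutants, against 123, 96.1 and 97.0 CPM in controls (log2 fold change 0.41 ± 0.08, adjusted p = 0.0162, and 0.447 without the term). Cnot7 and Cnot8, the deadenylases that BTG and TOB proteins bind, were not called, with log2 fold changes of -0.08 and -0.07. Among HES/HEY factors, Hes1, the Notch target that keeps progenitors undifferentiated, had 6.33, 6.86 and 8.40 CPM in mutants, against 0.223, 0.179 and 0.261 CPM in controls (4.90 ± 0.24, adjusted p = 7.11e-05, and 0.00344 without the term). Hey1 fell by 0.42 ± 0.10 on the log2 scale, with overlapping groups (adjusted p = 0.0437, and 0.996 without the term), and Hes5 and Hey2 were not called. Hes6 took 81.3%, 77.8% and 66.5% of the TPM of the 6 HES/HEY genes in mutants and 79.8%, 74.1% and 77.4% in controls, so it was the main transcript of the group in all 6 libraries.

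None of the 6 listed genes of the INSM group, which are Insm2 and the corepressor genes Kdm1a, Rcor1, Rcor2, Hdac1 and Hdac2, was called (edgeR, with the term or without). Of these, 2 had an unadjusted p under 0.05 with the term, Kdm1a at 0.0437 and Hdac2 at 0.0180, and none without it. Over all 16985 genes tested 5044 had such a p with the term and 1642 without it. DESeq2 with the term called 2 of the 6 lower, as it did 2178 of all 34289 genes. Kdm1a, with the highest mean CPM of the list, had 343 ± 36.9 CPM in mutants and 413 ± 14.7 CPM in controls (log2 fold change -0.22 ± 0.09, adjusted p = 0.155). In the GADD45 group, Map3k4, the kinase that GADD45 proteins activate, rose with the term (1.16 ± 0.24, adjusted p = 0.0234, and 0.996 without it), with overlapping groups at 22.6, 30.2 and 44.5 CPM in mutants and 8.38, 29.9 and 24.1 CPM in controls. Gadd45a and Gadd45b, the relatives of Gadd45g, were not called by edgeR, with log2 fold changes of -0.0028 and -1.17 (adjusted p = 0.995 and 0.0706). DESeq2 with the term called Gadd45b lower (-1.25, adjusted p = 0.0377), and Gadd45b had every mutant library below every control library. Gadd45g took 91.7%, 90.6% and 85.1% of the TPM of the 3 GADD45 genes in mutants, against 75.9%, 75.7% and 77.2% in controls.

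**Figure D5:**
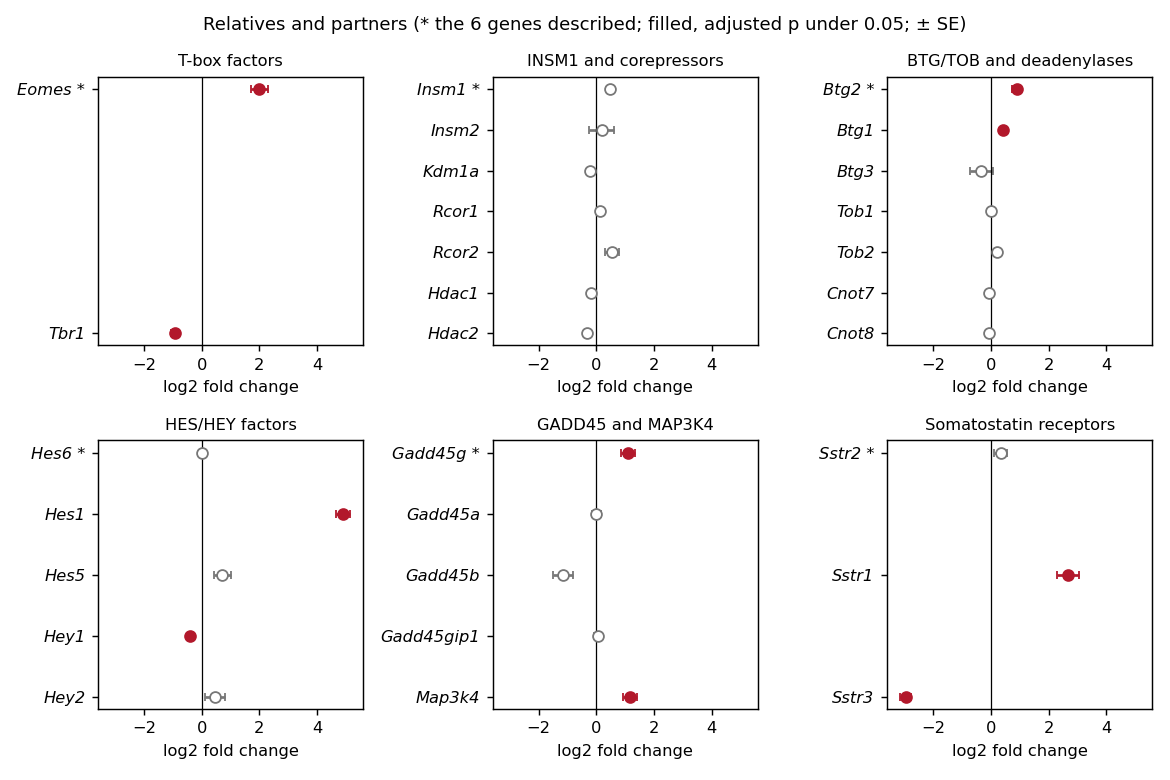
Log2 fold change of mutant over control with its SE for each of the 6 genes (asterisk) and its tested relatives and partners, in the fit with the library type term. Filled points passed an adjusted p of 0.05. Eomes and Tbr1 lie on opposite sides of 0, as do Sstr1 and Sstr3.

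The genes whose pattern over the libraries was most like that of Eomes were Prkd1, Ctnna1, Arfip1, Gfra1 and Slc37a3, with Pearson correlations of 0.9991, 0.9990, 0.9985, 0.9982 and 0.9980. The measure was the correlation of log2 CPM over 6 libraries, centred within each library type, among 11689 genes with a mean of at least 2 CPM. With so few libraries it separates genes poorly, since 374 genes had a correlation above 0.95. Gfra1, a receptor for GDNF, had 5.53, 3.91 and 6.89 CPM in mutants, against 2.32, 2.13 and 1.87 CPM in controls. With the library type term it had the largest log2 fold change of these genes, 1.40, and Slc37a3 the smallest, 0.32. Arfip1 and Slc37a3 were not called in that edgeR fit (adjusted p = 0.0611 and 0.0529). Ctnna1 and Slc37a3 overlapped between genotypes. Of the other members, Btg2 correlated with Eomes at 0.880, Insm1 at 0.873, Sstr2 at 0.737, Gadd45g at 0.708 and Hes6 at 0.352. These are descriptions of 6 libraries that share normalization and genotype groups.

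Intermediate progenitors divide, so markers of dividing cells and radial glia are given beside these results. In bulk RNA, more cells of a type and more RNA per cell cannot be told apart. Of 13 genes of dividing cells 6 rose and none fell with the library type term. None was called without it, where 6 had an unadjusted p under 0.05, as did 1642 of 16985 genes tested. DESeq2 with the term called 7 higher, beside 1690 of all 34289 genes. Of all genes tested 7.92% were called higher and 7.01% lower with the term, and 1.59% and 0.765% without it. The summed level of the 13 genes of dividing cells was 105 to 164 CPM in mutants and 87.2 to 151 CPM in controls. With the term 7 of them were not called. These include the 2 with the highest mean CPM, Pcna and Mcm2 (log2 fold change -0.25 and 0.10, adjusted p = 0.171 and 0.511). Pcna had 82.1, 67.8 and 36.9 CPM in mutants, against 95.6, 41.4 and 39.9 CPM in controls. Mki67, a marker of cycling cells, had 5.67, 5.18 and 9.90 CPM in mutants, against 2.45, 4.06 and 4.10 CPM in controls (adjusted p = 0.00374, and 0.486 without the term). Of 10 radial glia genes 3 rose (Pax6, Sox2 and Hes1) and 4 fell (Ptprz1, Slc1a3, Fabp7 and Vim) with the term, against 3 and 1 (Slc1a3) without it. Their summed level was 228 to 276 CPM in mutants and 483 to 719 CPM in controls, where Ptprz1 was the largest part. Pax6 had 30.0, 29.6 and 21.7 CPM in mutants, against 8.44, 5.76 and 5.95 CPM in controls (adjusted p = 9.3e-05, and 0.0185 without the term). Sox2 had 8.31, 3.81 and 4.09 CPM in mutants, against 0.945, 0.863 and 0.948 CPM in controls (adjusted p = 0.0063, and 0.0433 without the term). Ptprz1, a receptor phosphatase gene, had 64.3, 57.3 and 127 CPM in mutants, against 245, 489 and 596 CPM in controls (log2 fold change -2.05 ± 0.11, adjusted p = 0.000108, and 0.0798 without the term). Slc1a3, a glutamate transporter gene of glia, had 6.57, 5.59 and 5.84 CPM in mutants, against 13.4, 20.8 and 24.4 CPM in controls (-1.54 ± 0.22, adjusted p = 0.00497, and 0.0410 without the term). Both had every mutant below every control, while Fabp7 (-1.16, adjusted p = 0.000611) and Vim (-0.64, adjusted p = 0.0140) overlapped between genotypes. The part of dividing cells or radial glia in the higher Eomes, Btg2 and Gadd45g was not tested.

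Markers of most other cell types were near 0. The summed level of 7 interneuron genes was 2.45 to 2.86 CPM in mutants and 0.614 to 2.39 CPM in controls. Of 5 tested, 2 were called higher with the term and 0 without it. Without it 2 had an unadjusted p under 0.05, as did 1642 of 16985 genes tested. The summed level was at most 3.20 CPM in mutants and 1.94 CPM in controls for each of the microglial, endothelial, oligodendrocyte lineage and meningeal lists, where Sox10 was at 0 in every library. Of these, Kdr and Pdgfra were called higher with the term (adjusted p = 0.00761 and 0.0202) and not without it (0.640 and 0.351). Erythroid genes summed to 5.18 to 12.5 CPM in mutants and 6.24 to 8.41 CPM in controls. The 4 Cajal-Retzius genes summed to 245 to 699 CPM in mutants and 198 to 720 CPM in controls, most of it from Reln, and Calb2 was the member called higher, in both fits.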

How the data were processed

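Each library had 1 deposited table of 97251 transcripts. The kit was one for stranded total RNA, per the labels, and kallisto, FastQC and mm9 are named without versions per the submitters' processing notes. Per the file headers the deposited values were estimated counts of reads per transcript, not normalized by the authors, TPM scaled by the authors for effective length and total, and lengths in bases. The deposited transcripts were joined to GENCODE vM21 for names (84637 matched, 87.0%), and the unmatched took 6.85% to 8.58% of counts. Expected counts were summed to 34289 genes and rounded.

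The genotypes were set against each other in edgeR 4.0.16 by its quasi-likelihood test (R 4.3.3): TMM, filterByExpr defaults, a prior count of 2, a term for library type read from the deposited lengths, and Benjamini-Hochberg adjustment over 16985 genes. The term was chosen because the types cross the genotypes unevenly, and it lowered the common biological coefficient of variation to 0.186, against 0.701 without it. The members, lists and term were chosen with earlier results of these data known. SE is the log2 fold change divided by the square root of F. Effects within a library type pool the spread over both types. Tested on counts simulated for this comparison over 16657 genes with the term, the fit recovered 75% of 4-fold and 45.9% of 2-fold changes, with 10 false calls, and without the term 0% of each with 0 false calls. The simulated counts kept the library type effect and took their spread from the fit with the term. The lower recovery without the term was therefore built in, and it does not compare the 2 fits on the real counts. On those, the fit without the term called 400 genes. Alternatives used DESeq2 1.42.0, limma 3.58.1 on log2(TPM + 1) and log2(TPM + 0.1), RLE factors, no filter, no term, and each library left out.

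A rule named the 6 genes, their called or most abundant relatives, and from the wider list the 3 smallest p in each direction and the most abundant not called. It also named the 5 genes most like Eomes. Further marker genes were named after their values were seen. Promoter sequences are from RefSeq, build GRCm38.p6, matched by symbol for 5 of 6 members. No coordinates of the deposited build are given.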

Additional observations from a re-analysis of the deposited data

How the results depend on the processing

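The calls depended on the library type term. Of the 6 members 3 were called with it and 0 without it, of the wider list 12 and 4, and of all genes 2537 and 400. With limma on log2(TPM + 1) 1 member (Eomes) and 780 genes were called, with log2(TPM + 0.1) 1336 genes, and with DESeq2 3868 genes. Higher calls made up 53.1% of calls in the edgeR fit with the term and 67.5% in the fit without it. The share was 63.2% with log2(TPM + 0.1), 59.2% with log2(TPM + 1), 48.4% with RLE factors and 43.7% with DESeq2. Leaving out each library gave 1 to 3 members, 10 to 13 of the wider list and 1294 to 3034 genes with the term, and 0 to 1 members and 0 to 4 of the wider list without it. The fit lacking the term called 107, 96 or 329 genes when mutant 1, mutant 2 or mutant 3 was dropped, and 277, 84 or 97 when control 1, control 2 or control 3 was dropped; its single member was Gadd45g, with mutant 3 dropped. Eomes, Btg2, Gadd45g and Insm1 kept a positive log2 fold change in all these fits. Hes6 turned to -0.014 with DESeq2, -0.011 with RLE factors and -0.019 without mutant 1, and was at most 0.058 in the other fits with the term that left out a library (without mutant 2). Sstr2 turned to -0.14 without mutant 3 and within the fixed-length libraries, and was 0.83 without control 1. The transcripts Hes6-203 and Hes6-205 turned to -0.11 and -0.51 without the term, against 0.98 and 0.17 with it. With the term, the genotype effect without mutant 3 rests on the fixed-length libraries, and without control 1 on the estimated-length libraries. The cause of the other changes was not tested. A fit without control 1 or mutant 3 and without the term largely confounds genotype with library type. With 3 libraries a genotype, and a single library of 1 genotype in each type, few libraries stand behind each value, and the effect of depth was not tested. No paired analysis was possible because nothing in the labels pairs a mutant library with a control library. The numbers 1 to 3 used here only name the libraries.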
